A study of Mus musculus with 6 samples.

Results

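Glycosaminoglycan synthesis and sulfation genes were examined in rib chondrocytes that were cultured from newborn mice, either wild-type (WT) or Slc39a13-knockout (KO). The 39 genes are a list of enzymes and transporters taken by their function, and the list was drawn up with earlier results of these data known. On the Affymetrix Mouse Genome 430 2.0 array, 37 of the 39 had a probe set assigned to that gene alone, out of 18193 genes with such a probe set, and each was represented by its brightest probe set, the one with the highest mean signal over the 6 arrays. Xylt1 and Ndst1 were not analysed here, and the signal of Chst3 was too low for testing, so that 36 of 12715 tested genes belong to the pathway.

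There were 3 arrays per genotype, with 1 RNA sample on each. WT cells carry an intact Slc39a13, which encodes a zinc transporter of the Golgi apparatus. KO cells came from mice in which a Neo-cassette replaces several exons of Slc39a13, made by gene targeting in R1 embryonic stem cells. In both groups cartilaginous rib cages were digested with collagenase and the cells were cultured in medium with fetal calf serum, unsorted and without further treatment, so that cells other than chondrocytes were present. The labels do not say whether arrays of a genotype came from separate mice or cultures. The p-values therefore rest only on how far these arrays differ, and this spread may be technical.

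The glycosaminoglycans covered here, chondroitin, dermatan and heparan sulfate, are long sugar chains on proteoglycan core proteins. A short linker of xylose, galactose, galactose and glucuronic acid is first built on a serine of the core protein. Chondroitin or heparan sulfate is then polymerized on this linker in the Golgi apparatus and sulfated with the sulfate donor PAPS. Cartilage is rich in chondroitin sulfate, whose negative charge holds the water that lets the tissue resist compression. In human, mutations of B4GALT7 and B3GALT6, which encode linker enzymes, cause the same spondylodysplastic class of Ehlers-Danlos syndrome (EDS) as mutations of SLC39A13.

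The promoters of 4 genes that passed the test are shown as examples. Those of the other genes that passed, Chsy1 and Ext2 among them, are not shown. Csgalnact2, Chst11 and Extl1 were higher and Hs6st2 was lower in KO arrays. The windows are from RefSeq (build GRCm38.p6), run 5′ to 3′ from 250 bases before to 50 bases after a transcription start, and are on the minus strand for all but Chst11. Capitals mark matches on either strand to the GC box (GGGCGG), the CCAAT box (CCAAT), the TATA box (TATAAA), the SMAD box (GTCTG), the SOX site (ACAATG) and the core of the metal response element (TGCACNC or TGCGCNC). In these windows 0 bases lie in a match to more than 1 motif. Csgalnact2 and Hs6st2 each have a second annotated start whose window is not shown and has other matches. For Csgalnact2 it has only 1 metal response element core. For Hs6st2 it has only 1 GC box and 1 metal response element core.
Csgalnact2, chr6:118139091-118139390: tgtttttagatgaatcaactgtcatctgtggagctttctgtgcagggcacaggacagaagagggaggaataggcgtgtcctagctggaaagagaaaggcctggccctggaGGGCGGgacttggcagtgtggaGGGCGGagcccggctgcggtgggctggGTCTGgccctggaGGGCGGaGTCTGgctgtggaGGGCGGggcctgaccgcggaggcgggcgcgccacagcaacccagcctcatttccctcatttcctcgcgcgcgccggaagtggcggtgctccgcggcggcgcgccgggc
Chst11, chr10:82985247-82985546: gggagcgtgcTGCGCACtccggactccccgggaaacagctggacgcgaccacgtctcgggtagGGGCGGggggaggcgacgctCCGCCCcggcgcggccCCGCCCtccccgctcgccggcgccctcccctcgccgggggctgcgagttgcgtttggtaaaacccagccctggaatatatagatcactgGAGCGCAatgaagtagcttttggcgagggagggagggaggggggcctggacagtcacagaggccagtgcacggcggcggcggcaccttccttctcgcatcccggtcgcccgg
Extl1, chr4:134372498-134372797: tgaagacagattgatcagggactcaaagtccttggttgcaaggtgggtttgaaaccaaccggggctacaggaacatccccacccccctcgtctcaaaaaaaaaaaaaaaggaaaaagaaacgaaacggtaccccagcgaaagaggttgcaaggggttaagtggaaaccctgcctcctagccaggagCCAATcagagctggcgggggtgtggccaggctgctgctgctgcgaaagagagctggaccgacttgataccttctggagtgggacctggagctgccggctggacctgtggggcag
Hs6st2, chrX:51681553-51681852: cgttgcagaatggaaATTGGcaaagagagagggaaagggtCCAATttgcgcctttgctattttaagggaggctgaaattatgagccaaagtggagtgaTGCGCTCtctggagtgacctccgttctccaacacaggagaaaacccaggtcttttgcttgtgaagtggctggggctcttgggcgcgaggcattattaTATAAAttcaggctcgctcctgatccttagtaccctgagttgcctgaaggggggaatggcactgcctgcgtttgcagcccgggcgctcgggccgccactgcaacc

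None of the 6 motifs is in all 4 windows. The Csgalnact2 window has 4 GC boxes and 2 SMAD boxes, and the Chst11 window has 3 GC boxes and 2 metal response element cores. The Extl1 window has only 1 CCAAT box. The Hs6st2 window has 2 CCAAT boxes, 1 TATA box and 1 metal response element core. RefSeq windows were found for 31 of the 39 genes, 39 windows in all. A GC box was present in 25 of these 39 (64.1%) and in 35.7% of all 32851 windows, and a metal response element core in 19 (48.7%) and in 25.7% of all. The windows of the pathway were also richer in G and C, with a median of 66.3% against 52.7% over all windows. For the SMAD box the shares were 51.3% and 49.6%, for the CCAAT box 38.5% and 37.4%, for the TATA box 5.13% and 13.6%, and for the SOX site 2.56% and 12.6%. These are matches of letters and not evidence of a bound factor.

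The targeted gene was measured first, as a check of the labels. The Slc39a13 signal was 901, 1081 and 991 in the WT arrays and 100.5, 196 and 165 in the KO arrays. All KO arrays lay below all WT arrays (log2 fold change -2.67 ± 0.22 (SE), limma adjusted p = 0.000195). Of all 12715 tested genes, 4.64% were higher and 4.68% lower in KO by limma's adjusted p, the background for the marker counts here. The shares called in either direction were 46.7% of chondrocyte, 85.7% of mesothelial and 88.9% of fibroblast and perichondrium markers, against 9.32% of all. They were 66.7% of 3 osteoblast, 50% of 4 skeletal muscle, 20% of 5 macrophage and 0% of 1 endothelial marker tested. Of 15 chondrocyte markers, 6 were higher and 1 was lower in KO. Their summed signal was 126671 to 151766 in WT and 174295 to 243760 in KO. Mesothelial markers, which label the lining of the chest wall, were lower for 12 of 14 tested genes, with summed signals of 6682 to 11243 in WT and 1027 to 1668 in KO. Of 9 fibroblast and perichondrium markers 5 were higher and 3 lower, with sums of 89428 to 103495 and 108882 to 131870. Of 3 tested osteoblast markers 2 were higher, with sums of 958 to 1462 in WT and 2045 to 2999 in KO. Skeletal muscle markers summed to 1991 to 2083 and 2172 to 2671, with 1 of 4 tested genes higher and 1 lower. The sums of macrophage markers (674 to 838 and 624 to 882) and of endothelial markers (146 to 282 and 177 to 366) overlapped between the groups. KO replicate 1 stood apart: its log2 values correlated with those of the other 5 arrays at 0.946 to 0.956, against 0.964 to 0.983 among those 5. The part of cell composition in the results below was not tested. Fewer cells of a type and less RNA per cell cannot be told apart in such bulk samples.

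The 7 steps of the pathway were compared between genotypes, from the supply of precursors to the trimming of finished chains. Of the 36 tested genes, 6 were higher in KO cells (Slc26a2, Csgalnact2, Chsy1, Chst11, Ext2 and Extl1), 1 was lower (Hs6st2) and 29 did not pass limma's adjusted p of 0.05. The share that passed was 19.4%, against 9.32% of all tested genes (4.64% higher and 4.68% lower). These shares over all genes are also the background for the counts by step, branch and further list below. The median log2 fold change, KO minus WT, was 0.11 over the 36 genes and 0.01 over all tested genes. Above 0 were 25 of the 36 values and 6541 of the 12715 over all tested genes. Log2 fold changes here are differences of mean log2(signal + 7.96), which understates changes of dim genes.

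The groups did not overlap for 17 of the 36 genes (47.2%, against 30.9% of all tested genes). All KO arrays were above all WT arrays for 12 genes (16% over all) and below for 5 (14.9% over all). With 3 against 3 arrays an exact permutation test cannot go below p = 0.1, so none is given for single genes. A change of at least 2-fold was reached by Xylt2 and Extl1, both higher in KO, and by 0 genes in the other direction (1.44% and 2.05% of all tested genes). At an unadjusted limma p under 0.05 there were 12 genes higher and 4 lower, where the shares over all tested genes were 12.8% and 12.4%. For its arrays the study's methods name a 2-fold change, and they name Student's t-test only for comparisons of groups in general. That test, run here on the log2 values and named the methods' t-test, called 0 of the 36 after Benjamini-Hochberg adjustment. Of all tested genes it called 0.669%. At its unadjusted p it called 11 (30.6%, against 20.6% of all).

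These calls were sensitive to the processing. With each array centred on its median, 1 of the 36 genes was higher (Extl1) and 1 lower (Chst7), which is 5.56%, against 2.64% of all tested genes. The calls of Slc26a2, Csgalnact2, Chsy1, Chst11, Ext2 and Hs6st2 were lost. Over all genes the 590 higher and 595 lower calls became 106 and 230. Without the WT replicate 1, 2 or 3 array, 2 genes were higher, and 0, 0 and 1 lower (5.56%, 5.56% and 8.33%), and the shares over all genes were 3.88%, 3.31% and 4.04%. Without KO replicate 1 there were 6 higher and 3 lower (25%, against 9.27% of all genes). Without KO replicate 2 there were 4 higher and 0 lower (11.1%, against 6.25%), and without KO replicate 3 there were 9 higher and 3 lower (33.3%, against 12.5%). KO replicate 1 was the highest of the 6 arrays for 15 of the 36 genes (41.7%), against 31.1% of all tested genes.

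**Figure D1:**
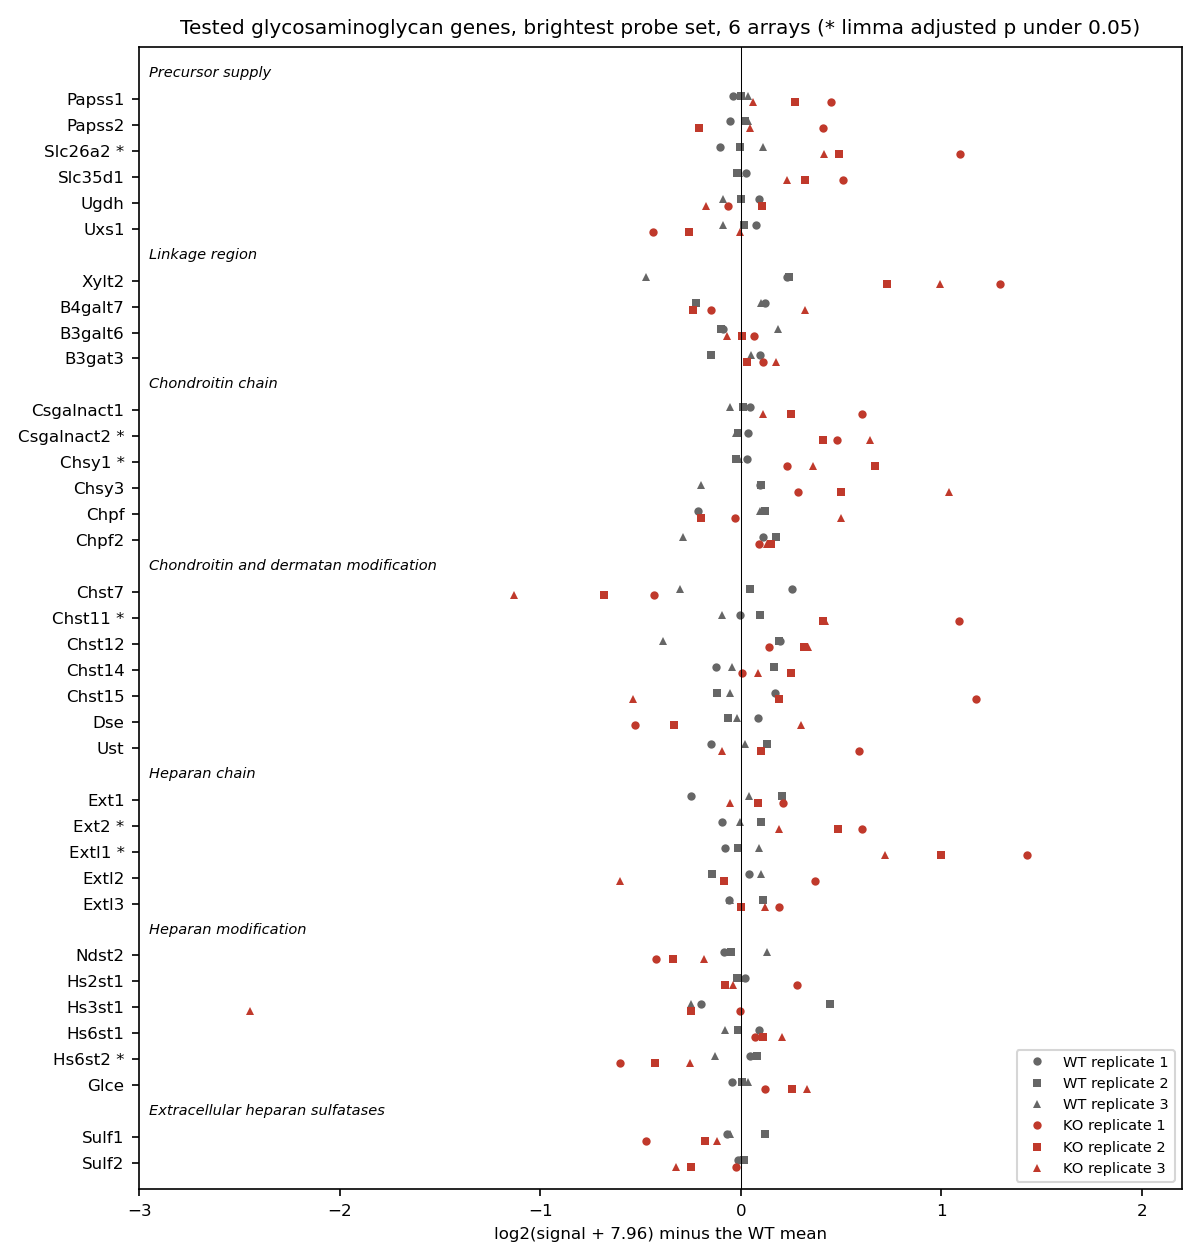
Each row is 1 of the 36 tested genes, grouped by its step in the pathway, and the horizontal axis is log2(signal + 7.96) of an array minus the mean of the 3 WT arrays. Gray points are WT and red points are KO arrays, the marker shape gives the replicate number, and an asterisk marks the 7 genes past limma's adjusted p of 0.05. Red points lie right of gray for all 6 of the genes that were higher in KO, and KO replicate 1 is often the farthest right.

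The genes that supply precursors were examined first. Of 6 tested, 1 was higher in KO (Slc26a2), 0 were lower and the median log2 fold change was 0.17. Slc26a2 encodes the sulfate transporter whose loss in human causes diastrophic dysplasia. Its signal was 1033, 1105 and 1197 in WT and 2376, 1561 and 1482 in KO arrays. All KO arrays exceeded all WT arrays, KO replicate 1 most of all. The mean rose from 1112 ± 82.5 to 1806 ± 495 (mean ± SD over the 3 arrays of a group, here and below), and the log2 fold change was 0.67 ± 0.16 (± SE, limma adjusted p = 0.0297). All 3 probe sets of Slc26a2 passed the test over all tested probe sets, the others with 0.81 and 0.94 (limma adjusted p = 0.024 and 0.015). Without any 1 of the WT replicates 1, 2 and 3 the call was lost (adjusted p = 0.110, 0.103 and 0.0661), and without KO replicate 1 it was kept with a smaller change of 0.45.

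Papss2, which makes PAPS and is mutated in a human brachyolmia, gave different results with different probe sets. The brightest probe set read 7045, 7425 and 7490 in WT and 9713, 6327 and 7548 in KO arrays. These groups overlapped, with the highest and the lowest array both being KO (log2 fold change 0.08 ± 0.13, limma adjusted p = 0.751). The third probe set read 1626, 1567 and 1703 in WT and 4118, 2671 and 2506 in KO arrays. Here every KO array exceeded the WT arrays, and the log2 fold change was 0.89 ± 0.16 (limma adjusted p = 0.0121 over probe sets). The second probe set lay between them (0.30, adjusted p = 0.188). The name of the third probe set marks possible binding to several transcripts, so Papss2 is left as uncertain.

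The other precursor genes did not pass. For Papss1, the second PAPS synthase, the log2 fold change was 0.26 (adjusted p = 0.137). For Slc35d1, which carries nucleotide sugars into the endoplasmic reticulum and Golgi, it was 0.35 (adjusted p = 0.0741). For both, the KO arrays lay above the WT arrays, but the dimmer probe set of Slc35d1 gave -0.37. Ugdh, which makes UDP-glucuronic acid, was at -0.04. Uxs1, which turns UDP-glucuronic acid into UDP-xylose, was at -0.23, while its other probe sets were at 0.13 and 0.35. Without KO replicate 3, Papss1 (0.36, limma adjusted p = 0.0266) and Slc35d1 (0.42, adjusted p = 0.0456) passed as higher. Uxs1 passed as lower without that array (-0.35, adjusted p = 0.0415).

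The linkage region was of interest for its shared disease class with SLC39A13. Of the 4 genes tested, 0 passed limma's threshold and the median log2 fold change was 0.05. At unadjusted p 1 of them, Xylt2, passed by limma and by the methods' t-test. B4galt7, the first galactosyltransferase of the linker, read 390, 306 and 386 in WT and 323, 303 and 449 in KO arrays. The groups overlapped (361 ± 47.4 against 358 ± 79.2, log2 fold change -0.02 ± 0.18, limma adjusted p = 0.958). The name of this probe set marks possible binding to several transcripts. The second probe set, whose name has no such mark, gave -0.24 (adjusted p = 0.515).

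B3galt6, the second galactosyltransferase, read 344, 342 and 418 in WT and 384, 368 and 348 in KO arrays. The KO arrays lay within the WT range (368 ± 43.3 against 367 ± 17.7, log2 fold change 0.0017 ± 0.14, limma adjusted p = 0.996). Its second probe set read 142, 146 and 128 in WT and 182, 190 and 192 in KO arrays. The KO arrays lay higher there, but the change of 0.42 ± 0.20 did not pass (adjusted p = 0.233). B3gat3, which adds the glucuronic acid that completes the linker, read 487, 411 and 473 in WT and 494, 465 and 515 in KO arrays. Its groups overlapped (log2 fold change 0.11 ± 0.12, limma adjusted p = 0.644). Xylt2, one of the xylosyltransferases that start the linker, was dim, with 62.7, 63.1 and 35.5 in WT and 140, 92.0 and 112 in KO arrays. The KO arrays lay above the WT arrays, from a mean of 53.8 ± 15.9 to 115 ± 23.9, but the log2 fold change of 1.01 ± 0.37 did not pass (limma adjusted p = 0.124). A p that misses the threshold does not show equal expression, and the standard errors of B4galt7 and B3galt6 were 0.18 and 0.14 on the log2 scale.

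The genes that start and polymerize chondroitin chains were all above 0 in log2 fold change (6 of 6, median 0.37). Over all tested genes, 6541 of 12715 were above 0. Of the 6 chondroitin chain genes, 2 passed as higher in KO and 0 as lower. Csgalnact2 encodes an N-acetylgalactosaminyltransferase that adds the first chondroitin sugar to the linker. It read 1957, 1894 and 1878 in WT and 2666, 2542 and 2993 in KO arrays. The groups were well apart, and the mean rose from 1910 ± 41.8 to 2734 ± 233 (ratio 1.43, log2 fold change 0.51 ± 0.08, limma adjusted p = 0.00566). This call was kept without any 1 array (largest adjusted p = 0.0369) and was lost with median centring (adjusted p = 0.203). Chsy1, a chondroitin synthase, read 2939, 2826 and 2852 in WT and 3369, 4571 and 3687 in KO arrays. Every KO array was higher, KO replicate 2 most of all, and the mean rose from 2872 ± 58.8 to 3875 ± 623 (log2 fold change 0.42 ± 0.11, limma adjusted p = 0.0367). The call for Chsy1 was lost without WT replicate 1, 2 or 3 or KO replicate 2 (adjusted p = 0.101, 0.138, 0.117 and 0.0788).

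The remaining chondroitin chain genes had log2 fold changes of 0.32 for Csgalnact1, the other initiating enzyme, 0.61 for Chsy3, another synthase, 0.09 for Chpf and 0.12 for Chpf2, which act as polymerizing factors. KO arrays were above WT arrays for Csgalnact1 and Chsy3 without passing the test (limma adjusted p = 0.118 and 0.108). Without KO replicate 3 the change of Csgalnact1 passed at 0.43 (adjusted p = 0.0338), and without KO replicate 1 that of Chsy3 passed at 0.77 (adjusted p = 0.0466).

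Of 7 tested genes that modify chondroitin and dermatan chains, 1 was higher in KO, 0 were lower and the median was 0.20. Chst11 encodes the main chondroitin 4-O-sulfotransferase of cartilage, and mice without it have a severe chondrodysplasia. It read 2075, 2229 and 1952 in WT and 4439, 2765 and 2785 in KO arrays. All KO arrays were higher and KO replicate 1 was far above the others. The mean rose from 2085 ± 139 to 3330 ± 961 (ratio 1.60, log2 fold change 0.64 ± 0.16, limma adjusted p = 0.0359). A dimmer probe set gave 0.63, with 302, 282 and 238 in WT and 551, 362 and 384 in KO arrays, but missed the threshold (adjusted p = 0.0763 over probe sets). Without WT replicate 1, 2 or 3 the call for Chst11 was lost (adjusted p = 0.108, 0.0904 and 0.122). Without KO replicate 1 it was kept at 0.41.

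Chst7 and Chst3 encode 6-O-sulfotransferases of chondroitin. Chst7 read 533, 461 and 359 in WT and 327, 275 and 199 in KO arrays. The KO arrays lay below the WT arrays, with means of 451 ± 87.1 and 267 ± 64.3, and the log2 fold change of -0.75 ± 0.21 just missed the threshold (limma adjusted p = 0.0517). Chst7 passed without KO replicate 1 (-0.90, adjusted p = 0.0244), with median centring, with the replicate block and with the stricter filter or higher pseudocount. It also passed at the unadjusted p of the methods' t-test. In the other settings it did not pass, with adjusted p up to 0.231 and changes down to -0.56 in size. With any other single array left out it did not pass either (limma adjusted p up to 0.193). Chst3, whose human mutations cause a spondyloepiphyseal dysplasia with joint dislocations, read 13.1, 12.2 and 52.8 in WT and 131, 13.4 and 5.41 in KO arrays. These values lay between the 7.21 and the 54.8 percentile of an array's probe sets, the groups overlapped, and no direction could be read from them (without the filter, log2 fold change 0.21, limma adjusted p = 0.93).

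Chst12, another chondroitin 4-O-sulfotransferase, was at 0.26, Chst14, which sulfates dermatan, at 0.11, and Ust, the uronyl 2-O-sulfotransferase, at 0.20. Dse, the epimerase that turns chondroitin into dermatan, was at -0.19, and passed as lower only without KO replicate 3 (-0.43, adjusted p = 0.0204). Chst15, which adds a second sulfate to N-acetylgalactosamine, was at 0.28. That value rested on KO replicate 1, which read 486 against 143 to 243 in the other 5 arrays, and without this array it was -0.17. None of these 5 passed limma's threshold (lowest adjusted p among them 0.351), and 0 passed at unadjusted p by limma or by the methods' t-test.

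**Figure D2:**
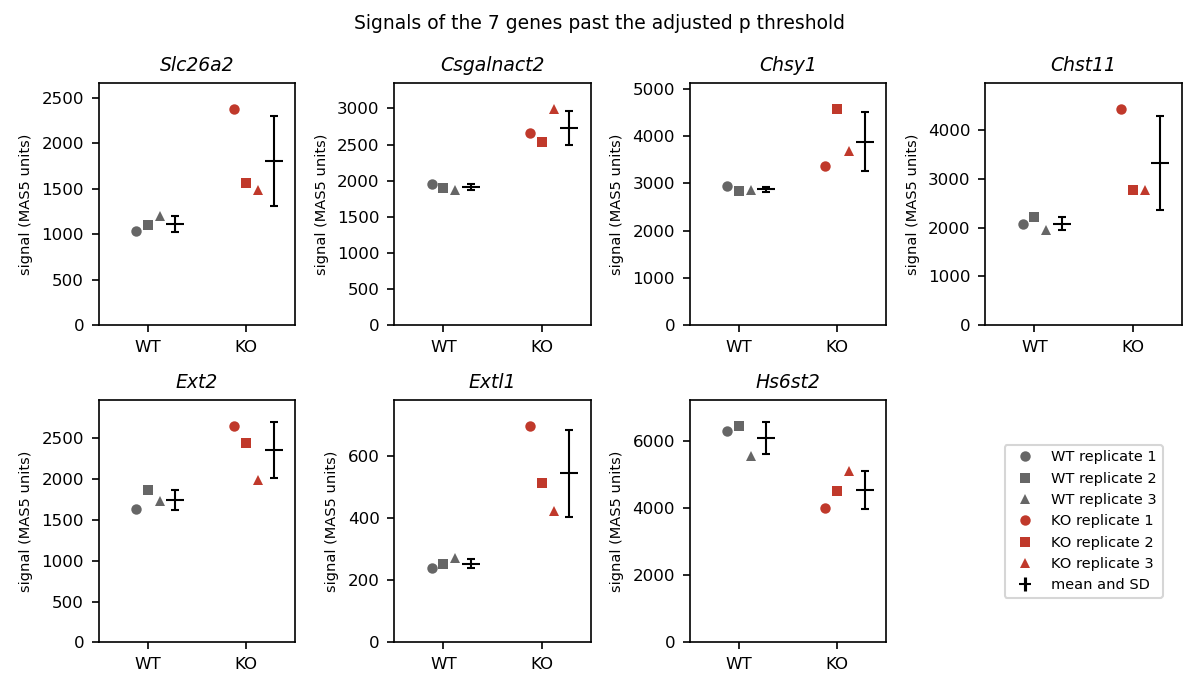
Signal (linear MAS5 units, each panel with its own axis from 0) of the 7 genes past limma's adjusted p of 0.05, with the 3 WT arrays in gray and the 3 KO arrays in red and marker shapes for replicates. Bars give the mean and SD of each group. The groups do not overlap in any panel, KO replicate 1 is the highest array for Slc26a2, Chst11, Ext2 and Extl1, and Hs6st2 is the only gene with KO below WT.

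Heparan sulfate chains are built by the exostosin family. Of 5 genes tested, 2 were higher in KO, 0 were lower and the median was 0.10. Extl1, an exostosin-like glycosyltransferase, had the largest log2 fold change of the 36 genes. It read 241, 252 and 271 in WT and 698, 515 and 423 in KO arrays. Every KO array was above every WT array, and the mean rose from 254.5 ± 15.4 to 545 ± 140 (ratio 2.14, log2 fold change 1.05 ± 0.18, limma adjusted p = 0.00751). The call was kept without any 1 array and with median centring, and was lost without limma's trend (adjusted p = 0.0583) and with the methods' t-test after adjustment (0.114).

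Ext1 and Ext2 form the heparan sulfate polymerase, and mutations of either cause multiple osteochondromas in human. Ext2 read 1629, 1864 and 1732 in WT and 2646, 2437 and 1984 in KO arrays. The KO arrays were above the WT arrays, with means of 1742 ± 118 and 2356 ± 338 (log2 fold change 0.43 ± 0.11, limma adjusted p = 0.0400). Adjusted over probe sets the same value missed the threshold (0.0537). The dimmer probe set gave -0.04 ± 0.46. The call was lost without WT replicate 1, 2 or 3 or KO replicate 1 or 2 (adjusted p = 0.149, 0.0910, 0.123, 0.0763 and 0.114). Ext1 read 1492, 2050 and 1825 in WT and 2051, 1884 and 1711 in KO arrays. Its groups overlapped, with WT replicate 1 lowest (log2 fold change 0.08 ± 0.12, limma adjusted p = 0.723). Whether Ext1 and Ext2 differed in their change was not tested. Extl2 was at -0.11 and Extl3, which starts heparan chains, at 0.10, and neither passed.

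Heparan sulfate modification included the 1 gene that passed as lower. Of 6 tested, 0 were higher and 1 was lower in KO, and the median was -0.13. Hs6st2, a heparan sulfate 6-O-sulfotransferase, read 6289, 6439 and 5559 in WT and 3998, 4518 and 5111 in KO arrays. All KO arrays were lower, with KO replicate 3 nearest to WT. The mean fell from 6096 ± 471 to 4543 ± 557 (ratio 0.745, log2 fold change -0.43 ± 0.10, limma adjusted p = 0.0281). Its dimmer probe sets overlapped between groups and gave -0.14 ± 0.14 and 0.44 ± 0.40 (± SE). With the mean of its probe sets the change was -0.04. The call was lost without WT replicate 1 or 2 or KO replicate 2 (adjusted p = 0.106, 0.131 and 0.0757). Hs6st1, the related enzyme, was at 0.13 (adjusted p = 0.635).

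Glce, the epimerase of heparan sulfate, read 1226, 1268 and 1298 in WT and 1377, 1510 and 1593 in KO arrays. The KO arrays were above the WT arrays, but the change of 0.24 ± 0.09 did not pass (limma adjusted p = 0.123), and neither did the 0.47 of a dimmer probe set (adjusted p = 0.0744 over probe sets). Taken as the mean of its probe sets Glce passed at 0.35 (adjusted p = 0.0437). Ndst2, which starts the sulfation of heparan by replacing acetyl groups, had all KO arrays below WT arrays (387 ± 32.1 against 310 ± 26.7, log2 fold change -0.31, adjusted p = 0.203). Hs2st1 was at 0.06, with other probe sets between -0.71 and 0.11. Hs3st1 was at -0.90 ± 0.59 (adjusted p = 0.381), a value that rested on KO replicate 3, which read 16.2 against 103 to 171 in the other arrays.

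Sulf1 and Sulf2 are extracellular enzymes that remove 6-O-sulfate from finished heparan sulfate chains. By their brightest probe sets 0 of the 2 passed limma's threshold, 2 were lower at unadjusted p, and 0 passed by the methods' t-test. Sulf1 read 2676, 3049 and 2700 in WT and 2015, 2472 and 2578 in KO arrays. The KO arrays were below the WT arrays (log2 fold change -0.26 ± 0.11, limma adjusted p = 0.157), as they were for a second probe set of nearly equal brightness (-0.39, adjusted p = 0.212). Sulf2 read 3961, 4039 and 3980 in WT and 3927, 3362 and 3188 in KO arrays. KO replicate 1 lay just under the WT arrays (log2 fold change -0.20 ± 0.09, limma adjusted p = 0.193), and without it the change passed at -0.29 (adjusted p = 0.0320). The second probe set of Sulf2 read 2221, 2223 and 2035 in WT and 1609, 1496 and 1467 in KO arrays. It was lower in every KO array and passed at -0.50 ± 0.08 (limma adjusted p = 0.00881 over probe sets). The names of the brightest and the second probe set of Sulf2 mark possible binding to several transcripts. The remaining one, whose name has no such mark, was at -0.07 (limma adjusted p = 0.743 over probe sets).

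The 37 measured genes had 72 probe sets in all, of which 64 passed the filter, 8 were higher and 2 lower in KO (15.6%, against 6.81% of all 23294 tested probe sets, 3.44% higher and 3.37% lower). Among the 20 genes with more than 1 tested probe set, 14 had all their probe sets on the same side of 0. The probe sets of Slc26a2 and of Chst11 gave like changes, whereas the estimates for Papss2 and Sulf2 ranged more widely. Those of Slc35d1, Uxs1, Ext2, Extl2, Hs2st1 and Hs6st2 lay on both sides of 0. Some were imprecise: the standard error was 0.46 for the dimmer probe set of Ext2 and 0.40 for a dim one of Hs6st2. Differences between probe sets were not tested. Probe sets of a gene may read different transcript ends, and 15 of the 37 genes had only 1.

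**Figure D3:**
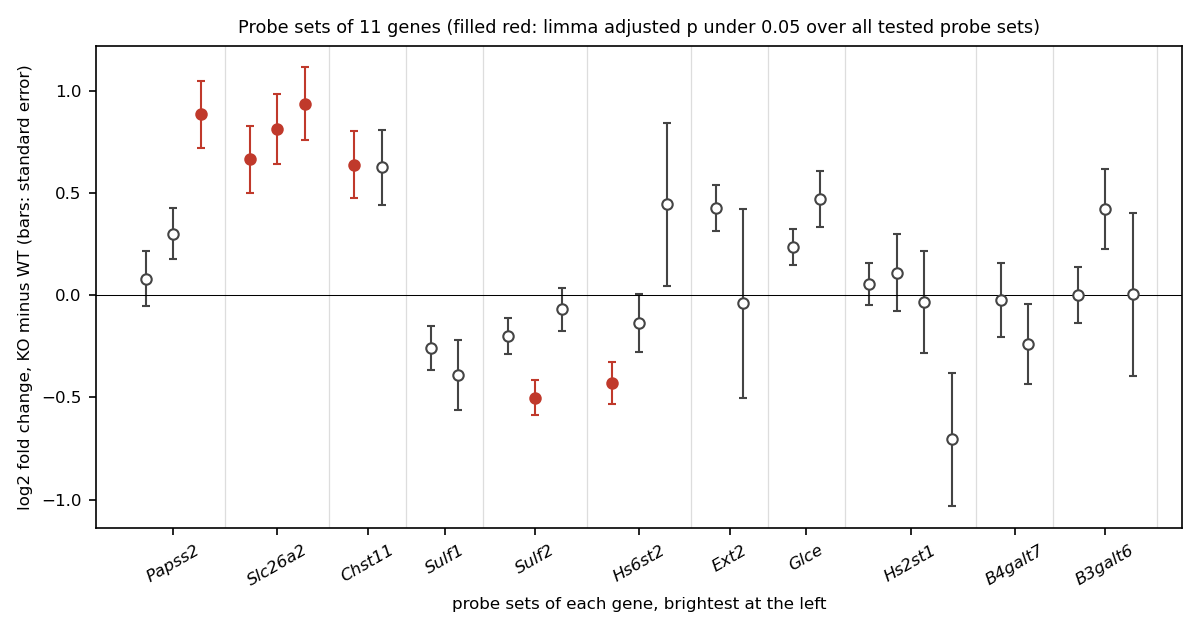
Log2 fold change (KO minus WT, vertical axis) with its standard error for each tested probe set of 11 genes, ordered from brightest to dimmest within a gene. Filled red points passed limma's adjusted p of 0.05 over all tested probe sets. All 3 probe sets of Slc26a2 are filled, only the third of Papss2 and the second of Sulf2 are, and the dimmer probe sets of Hs6st2 lie at -0.14 and 0.44.

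Taken by branch, the chondroitin and dermatan genes had 3 higher and 0 lower of 13 tested (23.1%, median log2 fold change 0.26). The heparan genes, extracellular sulfatases included, had 2 higher and 1 lower of 13 (23.1%, median 0.06). Among all tested genes 9.32% passed (4.64% higher and 4.68% lower), with a median of 0.01. The difference between the branches was not tested.

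Genes around this pathway were taken from further lists. Together 55 of them were tested, and 5 were higher and 0 lower (9.09%). This was near the 9.32% of all tested genes that passed. Of 22 other tested glycosaminoglycan genes 1 was higher and 0 lower (4.55%, against 9.32% of all). This was Cant1, a Golgi nucleotidase that clears a by-product of sugar transfer and is mutated in Desbuquois dysplasia. Cant1 read 673, 675 and 575 in WT and 912, 903 and 794 in KO arrays. Its groups did not overlap (log2 fold change 0.44 ± 0.11, limma adjusted p = 0.0369), and the call was lost without any 1 array other than KO replicate 3 (adjusted p = 0.0656 to 0.149). Fam20b, the kinase that phosphorylates the xylose of the linker, just missed the threshold (0.51, adjusted p = 0.0554). Of 14 tested genes of glycosaminoglycan breakdown 1 was higher and 0 lower (7.14%, against 9.32% of all). Galns, the lysosomal sulfatase deficient in Morquio syndrome, read 366, 343 and 354 in WT and 564, 465 and 528 in KO arrays. The groups were apart (0.54 ± 0.13, limma adjusted p = 0.0286), and the call was lost without any 1 array other than KO replicate 2 (adjusted p = 0.0506 to 0.120).

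Of 19 tested core proteins, which carry the chains, 3 were higher and 0 lower (15.8%, against 9.32% of all). Their median was 0.22, against 0.01 over all tested genes. Acan, the main chondroitin sulfate proteoglycan of cartilage, read 4321, 5425 and 4710 in WT and 11166, 8763 and 7466 in KO arrays. Its KO arrays were all above its WT arrays, KO replicate 1 highest (log2 fold change 0.91 ± 0.14, limma adjusted p = 0.00460). Acan also belongs to the chondrocyte markers. Bgn, which carries chondroitin or dermatan sulfate, read 20692, 21659 and 21406 in WT and 34065, 26764 and 26605 in KO arrays. These did not overlap (0.45 ± 0.11, limma adjusted p = 0.0280), and the call was lost without WT replicate 1, 2 or 3 (adjusted p = 0.104, 0.112 and 0.0920). Sdc3, a cell surface heparan sulfate proteoglycan, read 1156, 1188 and 995 in WT and 1539, 1642 and 1813 in KO arrays. Its KO arrays were all higher (0.58 ± 0.10, limma adjusted p = 0.00763), while its dimmer probe sets overlapped and did not pass.

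The stability of the 7 calls differed between genes. Csgalnact2 and Extl1 passed with each single array left out. Chst11, Csgalnact2 and Extl1 passed with the replicate number as a block. Without limma's trend 0 of the 7 passed, nor did any after adjustment of the methods' t-test, and at the unadjusted p of that test 6 of the 7 passed, all but Chst11.

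**Figure D4:**
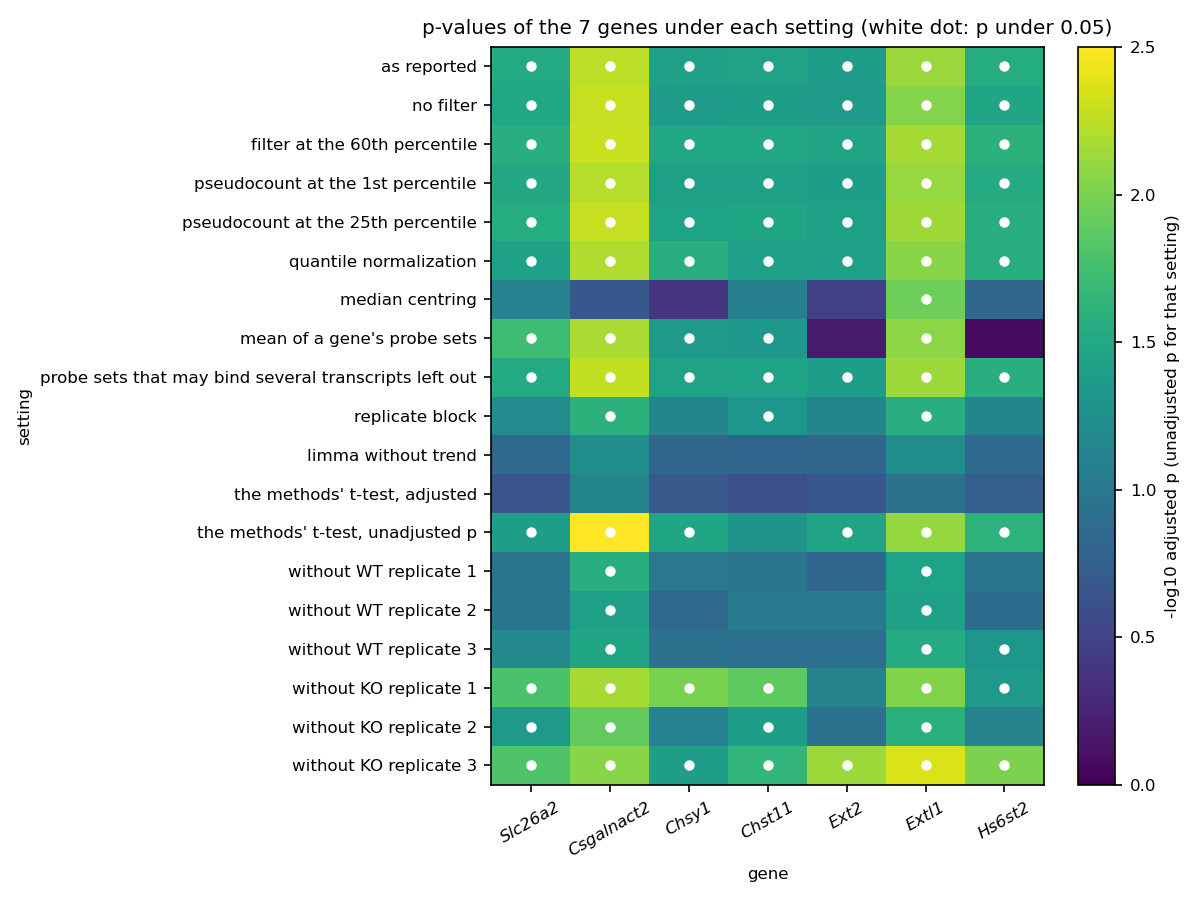
Each column is 1 of the 7 genes past the threshold and each row a processing setting, with color giving -log10 of the adjusted p (of the unadjusted p in the row named so). A white dot marks p under 0.05. Csgalnact2 and Extl1 keep the dot with any 1 array left out, and the rows for limma without trend and the adjusted t-test have 0 dots.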

How the data were processed

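Total RNA of WT and KO chondrocytes was hybridized to 6 arrays, 3 per genotype. The deposited intensities are MAS5 signals according to the processing notes, while the study's methods name gcRMA. They are linear, and each array has a mean of 500.003 after trimming 2% at each end, and this scaling was kept. Median signals were 80.7 to 108, and array data give no read depth. Of 45101 probe sets, 34958 had 1 gene symbol, 932 several and 9211 none, and 64 controls were left out. By Entrez identifier 34741 matched a RefSeq gene table (GRCm38.p6), which changed 0 symbols.

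Values were taken as log2(signal + 7.96), the pseudocount being the 10th percentile. A probe set was tested if its mean log2 value reached the 40th percentile (5.80), which gave 23294 probe sets and 12715 genes, with the brightest probe set standing for a gene. The genotypes were compared by limma 3.58.1 (R 4.3.3, trend, no covariates). Benjamini-Hochberg adjustment was over all genes tested, or over probe sets where stated, at a threshold of 0.05. The scripts were tested on simulated data.

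The genes, lists and markers were chosen with earlier results of these data known. Values in every array are given for genes past the threshold, the linkage genes, Papss2, Chst3, Chst11, Slc26a2, Ext1, Ext2 and up to 2 genes with the lowest p in a step where none passed. From further lists up to 4 genes past the threshold are named. Chst7, Glce, Fam20b and Sdc4 were named after their values were seen. Xylt1 and Ndst1 were not analysed here. Alternatives were other filters, pseudocounts, normalizations and probe set rules, a replicate block, limma without trend, the methods' t-test (two-sided Student) and each array left out. The replicate numbers were checked for pairing.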

Additional observations from a re-analysis of the deposited data

How the results depend on the processing

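With a filter at the 60th percentile or a pseudocount at the 25th, 2 pathway genes were lower (Chst7 beside Hs6st2), and with the probe sets of a gene averaged 0 were. Median centring gave 106 higher and 230 lower calls over all genes, and 1 higher in the further lists. In the pathway it gave 1 higher (Extl1) and 1 lower (Chst7 in place of Hs6st2). Limma without trend gave 121 and 144 over all genes, and 0 higher and 0 lower in the pathway and 0 higher in the further lists. The methods' t-test after adjustment gave 41 and 44 over all genes, and 0 higher and 0 lower in the pathway and 0 in the further lists. At its unadjusted p it gave 1346 and 1275 over all genes, 3 lower in the pathway, and 10 higher and 2 lower in the further lists. With each array left out in turn the counts ranged from 225 to 778 higher and 196 to 815 lower over all genes, from 2 to 9 higher and 0 to 3 lower in the pathway, and from 2 to 9 higher in the further lists. None of the values that changed sign passed the test. They were Papss2 (-0.014 with median centring), Slc35d1 (-0.0074 with the mean of probe sets, -0.37 with the other probe set), Uxs1 (0.081 with the mean of probe sets, 0.35 without probe sets that may bind several transcripts, 0.13 and 0.35 with its other probe sets), B3galt6 (-0.0093 with quantile normalization, -0.093 with median centring), Chpf (-0.0032 with median centring), Ext1 (-0.014 with median centring) and Ext2 (-0.039 with the other probe set). Others were Extl2 (0.093 with the mean, 0.29 with the other probe set), Hs2st1 (-0.039 with median centring, -0.14 with the mean, -0.032 and -0.71 with other probe sets), Hs6st2 (0.44 with a dim probe set) and Sdc4 (-0.012 with its other probe set or without probe sets that may bind several transcripts). With single arrays left out the signs changed within -0.082 to 0.23 for Papss2, -0.12 to 0.022 for Ugdh, -0.19 to 0.086 for B4galt7, -0.047 to 0.095 for B3galt6, -0.11 to 0.24 for Chpf, -0.021 to 0.21 for Chpf2, -0.17 to 0.68 for Chst15, -0.043 to 0.19 for Ext1, -0.34 to 0.14 for Extl2 and -0.058 to 0.12 for Hs2st1. The causes were not tested. The 6 arrays limit the precision.

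The replicate numbers did not pair the arrays: deviations from the group means of arrays with the same number correlated at 0.04, 0.01 and -0.07, and 1 of the 3 numbers had its best match in its own number. With the replicate block 344 genes were higher and 354 lower over all genes, 3 higher and 1 lower in the pathway (Chst7 in place of Hs6st2), and 2 higher in the further lists.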

Other observations

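Sdc4, a cell surface heparan sulfate proteoglycan, read 2624, 2671 and 2683 in the WT arrays and 8888, 8414 and 2221 in the KO arrays. KO replicates 1 and 2 were far above the WT arrays and KO replicate 3 was below them. Over all arrays the log2 fold change was 1.05 ± 0.42 (SE, limma adjusted p = 0.150), and without KO replicate 3 it was 1.70 (adjusted p = 2.67e-05). Its other probe set read 534, 486 and 712 in WT and 608, 610 and 485 in KO arrays, which overlapped.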
